A study of Danio rerio with 6 samples.

Results

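The collagen chains of the zebrafish were followed in GFP+ cells of Tg(fli1a:eGFP) embryos at 28 hours post fertilization, in 3 libraries from embryos injected with a clec16a morpholino (clec16a MO) and 3 from embryos injected with a control morpholino (control MO). The members were all rows of the expression table whose gene name begins with col, a type number, a and a chain number, which gave 48 rows of 21837. They carry 46 gene names from 18 collagen types, since col6a3 and col19a1 have a second row each. A total of 20 rows from 11 types averaged 1 FPKM or more in the 6 libraries and were tested, and the other 28 are described by their levels only. FPKM is the number of sequenced fragments relative to the length of the transcript and the size of the library, and on this scale levels of different chains are set beside each other. Whether reads covered short and long transcripts equally well was not tested.

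Both groups carry the Tg(fli1a:eGFP) transgene, in which regulatory sequence of fli1a drives green fluorescent protein in endothelium and, as background, in some blood and pharyngeal arch cells. Morpholinos are antisense oligomers directed against the splicing or the translation of an mRNA. The labels state neither which of these the clec16a MO targets, nor how the GFP+ cells were gated, nor how many embryos went into a library. Cells of both groups were not cultured, and the groups are those of the genotype label; sample titles begin with NegaP for the clec16a MO and with Exp2D for the control MO. The series asks how clec16a acts in hematopoietic stem and progenitor cells of the zebrafish, with mitophagy named in its title.

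Collagens are secreted or membrane proteins in which 3 chains wind around each other into a triple helix. Fibrillar collagens form the fibrils of skin, cartilage and the notochord sheath. Network collagens form sheets, of which type IV is the scaffold of every basement membrane, including that beneath endothelium. FACIT collagens sit on the surface of fibrils. Multiplexins are basement membrane collagens whose terminal fragments include endostatin, a known inhibitor of vessel growth. In the embryo most fibrillar chains are made by notochord, cartilage, fibroblast and epidermal cells, while endothelium makes type IV and several other basement membrane chains.

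Several values of the libraries as a whole touch every collagen result. The targeted gene clec16a had 5.68, 5.57 and 4.24 FPKM in clec16a MO libraries, against 14.4, 14.1 and 14.3 FPKM in the control MO libraries. The reporter's own gene fli1a was 9.83-fold lower, at 107 ± 9.02 FPKM in clec16a MO libraries and 1049 ± 71.2 FPKM in control MO libraries (SD, n = 3 each), although both groups are labelled GFP+. The endothelial transcription factor gene erg stood at 0 in all 3 clec16a MO libraries and read 141, 144 and 155 FPKM in control MO libraries. Limma with Benjamini-Hochberg adjustment called 81.3% of the 12153 tested rows at an adjusted p below 0.05: 26.7% higher and 54.6% lower in the clec16a MO libraries. The median log2 difference of all tested rows was -0.66, and centring each library on its median moved that median by 0.69. A collagen difference near -0.66 is therefore no larger than that of the middle gene. The clec16a difference was -1.32 (SE 0.13, limma adjusted p = 5.5e-05), called lower as were 54.6% of all tested rows. With median centring it was -0.63 (limma adjusted p = 0.0031). Because whole populations of sorted cells were measured, fewer cells of a type and less RNA per cell cannot be told apart. Nothing in the labels says that the replicates came from separate clutches, so the p-values reflect the spread between these libraries alone, and that spread may be technical.

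The marker lists of endothelium, muscle, epidermis, notochord, cartilage and fibroblasts held more rows called lower than higher in the clec16a MO libraries, and the blood cell lists more called higher, to be read beside the 54.6% and 26.7% of all tested rows. Of 13 tested endothelial markers, 0 were called higher and 12 lower, and the list summed to 1143 to 1443 FPKM in clec16a MO libraries and 3670 to 3737 FPKM in control MO libraries. The row without a call, clec14a, named after its values were seen, had the highest level of the list in each clec16a MO library. It read 970, 700 and 670 FPKM in clec16a MO libraries and 863, 841 and 870 FPKM in control MO libraries. Its log2 difference was -0.16 (limma adjusted p = 0.32). It was called higher with median centring (0.53, limma adjusted p = 0.009) and lower with quantile normalization (-0.35, limma adjusted p = 0.047). All 14 tested skeletal muscle markers and all 14 tested epidermal markers were called lower. The muscle list summed to 25.99 to 37.99 FPKM in clec16a MO libraries and 3303 to 3339 FPKM in control MO libraries, and the epidermal list to 686 to 727 FPKM in clec16a MO libraries and 3370 to 3444 FPKM in control MO libraries. Of 4 tested notochord markers, 0 were called higher and 4 lower, with noto, shha and shhb listed at 0 in each clec16a MO library; the 9 rows summed to 5.98 to 11.8 FPKM in clec16a MO libraries and 36.2 to 38.1 FPKM in control MO libraries. Cartilage and pharyngeal arch markers gave 1 higher and 4 lower of 6 tested, and summed to 13.9 to 19.7 FPKM in clec16a MO libraries and 44.5 to 45.8 FPKM in control MO libraries. The chondrogenic factor gene sox9a was at 0 in each clec16a MO library. The arch mesenchyme gene hand2 went the other way, with means of 7.74 FPKM in clec16a MO libraries and 1.86 FPKM in control MO libraries, and prrx1a was not called (log2 difference 0.30, adjusted p = 0.35; 0.99 and called higher with median centring, adjusted p = 0.012). Sclerotome and fibroblast markers gave 0 higher and 5 lower of 7, with sums of 45.4 to 65.3 FPKM in clec16a MO libraries and 90.9 to 96.1 FPKM in control MO libraries. The larger part of each sum was tgfbi, at 41.1, 54.0 and 59.0 FPKM in clec16a MO libraries and 49.2, 52.7 and 54.7 FPKM in control MO libraries. tgfbi and pax9, named after their values were seen, were the rows without a call. With median centring both were called higher (0.66 and 0.92, limma adjusted p of 0.0048 and 0.00024). The erythroid list summed to 12770 to 20264 FPKM in clec16a MO libraries and 926 to 1041 FPKM in control MO libraries, with 13 of 13 called higher, and the myeloid list to 1772 to 2510 FPKM in clec16a MO libraries and 59.1 to 62.6 FPKM in control MO libraries, with 8 of 9 called higher. In the cartilage, fibroblast and muscle lists 4, 4 and 6 of the tested rows averaged below 1 FPKM in the clec16a MO libraries, in the epidermal list 4, and in the endothelial and notochord lists 2 each. In the myeloid and erythroid lists 4 and 2 did so in the control MO libraries. The part of these cell types in the collagen differences was not tested.

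Collagen mRNA was lower in the clec16a MO libraries in nearly every chain that could be tested. The 48 rows summed to 16.3, 14.2 and 16.1 FPKM in clec16a MO libraries, against 166 FPKM in 2 control MO libraries and 176 FPKM in the other. They took 0.00297% ± 0.000111 of the summed FPKM in clec16a MO libraries and 0.0341% ± 0.00167 in control MO libraries (SD, n = 3 each). Of the 20 tested rows, limma called 19 lower and 0 higher, beside 54.6% and 26.7% of all tested rows, and 0 were higher at an unadjusted p below 0.05. A log2 difference of -1 or lower was reached by 17 of the 19, beside 41.3% of all tested rows, and in 19 of the 20 every control MO library lay above every clec16a MO library, beside 56.1%. The median log2 difference of the tested collagen rows was -2.22. After median centring it was -1.53, with 17 rows lower and 1 higher, beside 38.1% and 39.7% of all tested rows. After quantile normalization 16 were lower and 1 higher, beside 39.8% and 38%. Of the 20 rows, 16 had a mean below 1 FPKM in the clec16a MO libraries, so they entered the test through their control MO level and had to differ, and the count is a description only. Over all 48 rows, filter or not, every control MO library lay above every clec16a MO library for 42 rows, where 51.4% of all rows of the table did so, and the reverse held for 0 rows.

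**Figure D1:**
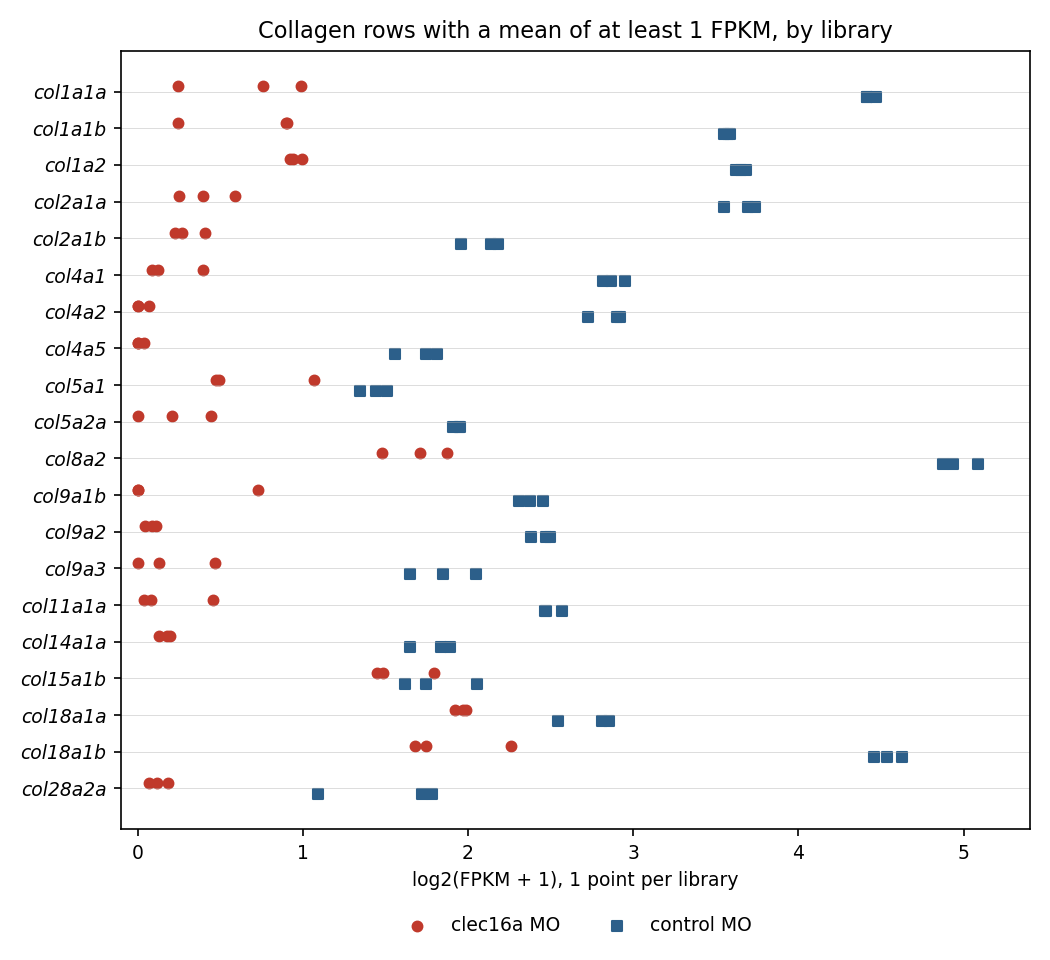
Level of the 20 tested collagen rows as log2(FPKM + 1), with 1 point per library: circles for the 3 clec16a MO libraries and squares for the 3 control MO libraries. The groups stand apart in every row except col15a1b, where they overlap.

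Among the fibrillar chains, type I was the most abundant in the control MO libraries. Its trimer holds alpha 1 and alpha 2 chains, and the zebrafish has a pair of alpha 1 genes, col1a1a and col1a1b. col1a1a read 0.692, 0.185 and 0.987 FPKM in clec16a MO libraries, against 20.4, 20.3 and 21.1 FPKM in control MO libraries. Its log2 difference of -3.77 (SE 0.20; adjusted p = 2.3e-06 by limma) was the most negative of the 20 tested collagen rows. col1a1b read 0.863, 0.873 and 0.184 FPKM in clec16a MO libraries and 11.01, 10.9 and 10.7 FPKM in control MO libraries. The alpha 2 gene col1a2 read 0.992, 0.918 and 0.897 FPKM in clec16a MO libraries, close to each other, and 11.8, 11.3 and 11.6 FPKM in control MO libraries. These 3 type I rows averaged below 1 FPKM in the clec16a MO libraries and entered the test through their control MO level. Their being called lower, as 54.6% of all tested rows were, is therefore a description only. The 2 alpha 1 rows together stood at 1.57, 1.15 and 1.31 times col1a2 in clec16a MO libraries and at 2.65, 2.76 and 2.75 times in control MO libraries. On the log2 scale this ratio differed by -1.03 (p = 0.1 by a two-sided exact permutation test, which can go no lower with 3 libraries a group), and the ratio was chosen after its values were seen. Since all 3 rows entered through their control MO level, the ratio and its p are a description only. col1a1a stood at 0.802, 0.212 and 5.35 times col1a1b in clec16a MO libraries and at 1.85, 1.86 and 1.98 times in control MO libraries.

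The cartilage and notochord collagens of types II, XI and IX were near 0 in the clec16a MO libraries. col2a1a, the main fibril chain of cartilage and of the notochord sheath, read 0.191, 0.505 and 0.314 FPKM in clec16a MO libraries, against 12.3, 11.9 and 10.7 FPKM in control MO libraries. Its paralog col2a1b averaged 0.234 ± 0.0844 FPKM in clec16a MO libraries and 3.27 ± 0.342 FPKM in control MO libraries (SD, n = 3 each). col11a1a, whose chain joins type II in cartilage fibrils, read 0.371, 0.0268 and 0.0577 FPKM in clec16a MO libraries and 4.55, 4.53 and 4.92 FPKM in control MO libraries. The FACIT collagen of type IX is built from 3 different chains, and its 3 main genes stood at neighbouring levels in the control MO libraries. col9a2 averaged 0.0574 ± 0.0251 FPKM in clec16a MO libraries and 4.47 ± 0.227 FPKM in control MO libraries, a 77.8-fold lower mean. col9a1b read 0, 0 and 0.657 FPKM in clec16a MO libraries, against 3.96, 4.20 and 4.47 FPKM in control MO libraries. col9a3 read 0, 0.382 and 0.0951 FPKM in clec16a MO libraries, against 2.60, 3.14 and 2.14 FPKM in control MO libraries. The col9a1b level was 0.868 to 1.06 times that of col9a2 in the control MO libraries, and the col9a3 level 0.508 to 0.678 times. In each of these 6 rows every control MO library lay above every clec16a MO library, as in 56.1% of all tested rows. The log2 differences lay between -3.25 (col2a1a) and -1.65 (col9a3), all called lower by limma (adjusted p of 6.4e-05 or less, Benjamini-Hochberg), as were 54.6% of all tested rows. All 6 averaged below 1 FPKM in the clec16a MO libraries and entered the test through their control MO level, so these counts are a description only.

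Type V nucleates collagen fibrils, and its chains differed from each other in how much signal was left. col5a2a read 0, 0.156 and 0.358 FPKM in clec16a MO libraries, against 2.85, 2.86 and 2.76 FPKM in control MO libraries. col5a1 read 0.387, 1.1003 and 0.404 FPKM in clec16a MO libraries, against 1.72, 1.85 and 1.55 FPKM in control MO libraries. The col5a1 libraries of the groups did not overlap, but the second clec16a MO library stood well above the other two. Its clec16a MO mean was below 1 FPKM, so col5a1 entered the test through its control MO level. The col5a1 difference of -0.76 (SE 0.18; adjusted p = 0.0061 by limma) was no longer called with median centring, at -0.07 (adjusted p = 0.77), and turned to 0.32 with quantile normalization (adjusted p = 0.14).

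The 3 tested rows of basement membrane type IV averaged near 0 in the clec16a MO libraries. col4a1 and col4a2, which encode the chains of the common type IV trimer and lie next to each other in the RefSeq table of assembly GRCz12tu, had nearly equal control MO levels. col4a1 read 0.0641, 0.0882 and 0.318 FPKM in clec16a MO libraries, against 6.05, 6.27 and 6.73 FPKM in control MO libraries. col4a2 read 0.0487, 0 and 0 FPKM in clec16a MO libraries, against 6.46, 5.61 and 6.57 FPKM in control MO libraries. The col4a1 level was 0.937, 1.12 and 1.02 times that of col4a2 in the control MO libraries. Their log2 differences were -2.67 (SE 0.13) and -2.83 (SE 0.11), with limma adjusted p of 1.7e-06 and 7.8e-07 (Benjamini-Hochberg). Both rows averaged below 1 FPKM in the clec16a MO libraries and entered the test through their control MO level, so they had to differ. Their calls are a description only, beside the 54.6% of all tested rows called lower.

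The second neighbouring pair of type IV genes, col4a5 and col4a6, was less even. col4a5 read 0, 0 and 0.0265 FPKM in clec16a MO libraries and 1.95, 2.36 and 2.51 FPKM in control MO libraries. It was called lower (log2 difference -1.69, SE 0.11), as were 54.6% of all tested rows. It too entered the test through its control MO level, so the call is a description only. col4a6, below the filter, read 0.392, 0.169 and 0 FPKM in clec16a MO libraries and 0.604, 0.499 and 0.530 FPKM in control MO libraries. The third pair, col4a3 and col4a4, stayed below 0.6 FPKM in every library. col4a4 read 0.190, 0.00891 and 0.407 FPKM in clec16a MO libraries and 0.428, 0.589 and 0.543 FPKM in control MO libraries.

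In the control MO libraries the short network chain col8a2 had the highest level of all 48 collagen rows. Type VIII is known from the subendothelium and from the membrane under the corneal endothelium. col8a2 read 2.27, 1.78 and 2.66 FPKM in clec16a MO libraries, against 28.4, 29.5 and 33.0 FPKM in control MO libraries. Its mean was 13.5-fold lower, with a log2 difference of -3.28 (SE 0.14; adjusted p = 9.0e-07 by limma). The alpha 1 chain of the same type, col8a1a, read 0, 0 and 0.0734 FPKM in clec16a MO libraries and 0.838, 0.850 and 0.744 FPKM in control MO libraries, below the filter.

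The type XVIII multiplexins had the highest mean collagen levels in the clec16a MO libraries, and there the 2 paralogs overlapped in level. col18a1b read 3.79, 2.36 and 2.21 FPKM in clec16a MO libraries, against 20.9, 22.2 and 23.8 FPKM in control MO libraries. The groups did not overlap, and the log2 difference was -2.64 (SE 0.17; adjusted p = 6.7e-06 by limma). col18a1a read 2.78, 2.92 and 2.96 FPKM in clec16a MO libraries, against 6.03, 4.84 and 6.22 FPKM in control MO libraries. This 1.97-fold lower mean was called (log2 difference -0.78, SE 0.13; adjusted p = 0.0010 by limma), but the difference was -0.09 with median centring and -0.01 with quantile normalization, with adjusted p of 0.56 and 0.96. The col18a1b level was 1.36, 0.807 and 0.745 times that of col18a1a in clec16a MO libraries and 3.47, 4.57 and 3.82 times in control MO libraries. This ratio, chosen after its values were seen and free of the scaling of the libraries, differed by -2.07 on the log2 scale (p = 0.1 by the same exact permutation test, its smallest value).

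col15a1b was the 1 tested collagen row without a call. It read 1.73, 1.80 and 2.47 FPKM in clec16a MO libraries and 2.36, 2.07 and 3.15 FPKM in control MO libraries, and the groups overlapped. The log2 difference was -0.23 (SE 0.17, 95% interval -0.62 to 0.16, limma adjusted p = 0.24, Benjamini-Hochberg). It turned to 0.46 with median centring and to 0.70 with quantile normalization, and was then called higher, with limma adjusted p of 0.034 and 0.0065. Set against col4a1, another basement membrane chain, col15a1b stood at 27.04, 20.4 and 7.78 times its level in clec16a MO libraries and at 0.389, 0.331 and 0.468 times in control MO libraries. The log2 ratio of these genes, chosen after their values were seen, differed by 5.37 (p = 0.1 by the same exact permutation test). This ratio was taken on FPKM without a pseudocount, unlike the log2 differences above. Its size rests on col4a1 levels near 0 in the clec16a MO libraries (0.0641, 0.0882 and 0.318 FPKM). col4a1 entered the test through its control MO level, and col15a1b was taken as the row without a call. The ratio and its p are therefore a description only.

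**Figure D2:**
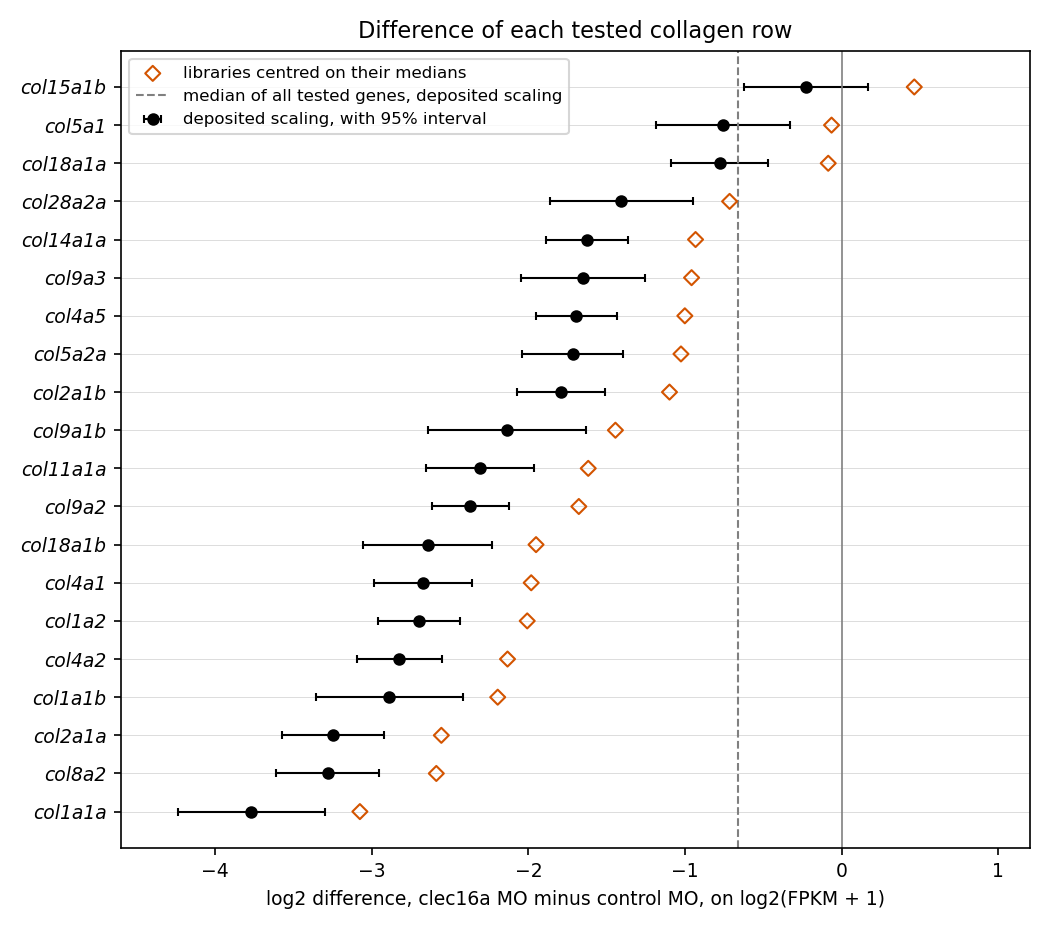
Log2 difference (clec16a MO minus control MO, on the log2(FPKM + 1) scale) of the 20 tested collagen rows, with 95% intervals from limma as black points and the values after median centring as open diamonds. The dashed line marks the median of all tested rows, -0.66; col15a1b alone lies above it, at -0.23, and turns positive with centring, while col5a1 and col18a1a lie near 0 after centring.

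The tested rows of the other types, col14a1a and col28a2a, were low and were called lower, as were 54.6% of all tested rows. Both entered the test through their control MO level, so their calls are a description only. The FACIT gene col14a1a averaged 0.124 ± 0.0267 FPKM in clec16a MO libraries and 2.48 ± 0.301 FPKM in control MO libraries (SD, n = 3 each; log2 difference -1.63, limma adjusted p = 8.0e-06, Benjamini-Hochberg). col28a2a, a chain of type XXVIII, read 0.0867, 0.138 and 0.0476 FPKM in clec16a MO libraries and 1.13, 2.44 and 2.298 FPKM in control MO libraries. The first control MO library stood below the other two, and the call (log2 difference -1.41, adjusted p = 0.00033) ended with quantile normalization (-0.36, adjusted p = 0.14). With a mean of 1.02 FPKM over the 6 libraries, col28a2a was also the member just inside the filter. The member just outside it was col14a1b, with a mean of 0.794 FPKM. It read 0.0825, 0.121 and 0.239 FPKM in clec16a MO libraries and 1.54, 1.23 and 1.56 FPKM in control MO libraries.

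Of the 28 rows below the filter, 26 had the higher mean in the control MO libraries and 2 in the clec16a MO libraries. Over all 21837 rows, tested or not, these numbers were 14545 and 7292. All control MO libraries lay above all clec16a MO libraries in 23 of the 28, beside 51.4% of all rows, tested or not. Among the tested rows that share was 56.1%, and no share was taken for the rows below the filter alone. The beaded filament collagen of type VI, a connective tissue collagen known for its part in muscle disease, was at 0 in each clec16a MO library in all 5 rows, and these summed to 0.754, 0.681 and 0.829 FPKM in control MO libraries. The anchoring fibril genes col7a1 and col7a1l, which in mammals fasten epidermis to dermis, were likewise listed at 0 in each clec16a MO library and summed to 0.890, 0.795 and 0.639 FPKM in control MO libraries. The epidermal hemidesmosome chain col17a1a read 0.0224, 0 and 0 FPKM in clec16a MO libraries and 0.324, 0.193 and 0.284 FPKM in control MO libraries. For its paralog col17a1b the groups overlapped, at 0, 0 and 0.112 FPKM in clec16a MO libraries and 0.0323, 0.0224 and 0.0890 FPKM in control MO libraries. col12a1a overlapped too, at 0.181, 0.00200 and 0.0510 FPKM in clec16a MO libraries and 0.252, 0.126 and 0.261 FPKM in control MO libraries. In all, 14 of the 48 collagen rows (29.2%) were listed at 0 in each clec16a MO library and 2 (4.17%) in each control MO library, where of all rows 16.2% were at 0 in each clec16a MO library and 7.66% in each control MO library. An exact 0 in such a table can be a failed estimate. The 2 rows with the higher mean in the clec16a MO libraries, col8a1b and col28a1b, had a single value above 0 each, of 0.0464 and 0.0305 FPKM.

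The make-up of the collagen mRNA differed between the groups. The 3 multiplexin rows held 49.4% ± 1.75 of the collagen FPKM in clec16a MO libraries and 17.97% ± 0.740 in control MO libraries (SD, n = 3 each). Fibrillar chains held 26.1% ± 4.14 in clec16a MO libraries and 41.8% ± 1.45 in control MO libraries. Network chains held 18.2% ± 3.65 in clec16a MO libraries and 27.8% ± 0.973 in control MO libraries. FACIT chains held 5.35% ± 2.22 in clec16a MO libraries and 10.2% ± 0.401 in control MO libraries. For each of these 4 families the libraries of the groups did not overlap. The shares are free of the scaling of the libraries, but a share can be larger only where another is smaller: the multiplexins summed to 8.30, 7.08 and 7.64 FPKM in clec16a MO libraries, against 29.3, 29.1 and 33.1 FPKM in control MO libraries.

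**Figure D3:**
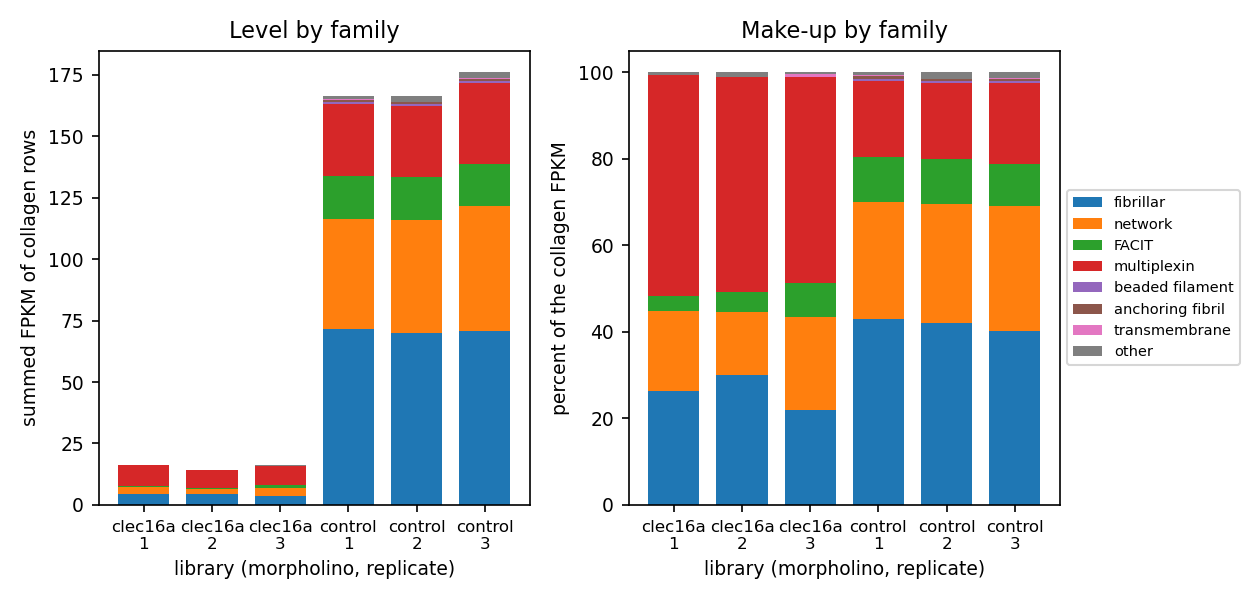
Summed FPKM of the 48 collagen rows by family in each library (left) and the same as a percent of the library's collagen FPKM (right), with clec16a MO libraries before control MO libraries. Bars start at 0; the multiplexins make up 49.4% of the collagen FPKM on average in clec16a MO libraries and 17.97% in control MO libraries.

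By level, the collagen order was also different. In the clec16a MO libraries col18a1a (mean 2.89 FPKM), col18a1b (2.78 FPKM), col8a2 (2.24 FPKM) and col15a1b (2.002 FPKM) came first, with overlapping libraries from each to the next, and they were the 4 rows with a mean of at least 1 FPKM there. In the control MO libraries col8a2 (30.3 FPKM), col18a1b (22.3 FPKM) and col1a1a (20.6 FPKM) came first. Their ranges did not overlap, except between col18a1b and col1a1a. col2a1a (11.7 FPKM), col1a2 (11.6 FPKM) and col1a1b (10.9 FPKM) followed. Of the control MO ranges of these 3, col2a1a overlapped with both of the others, while col1a2 and col1a1b did not overlap.

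**Figure D4:**
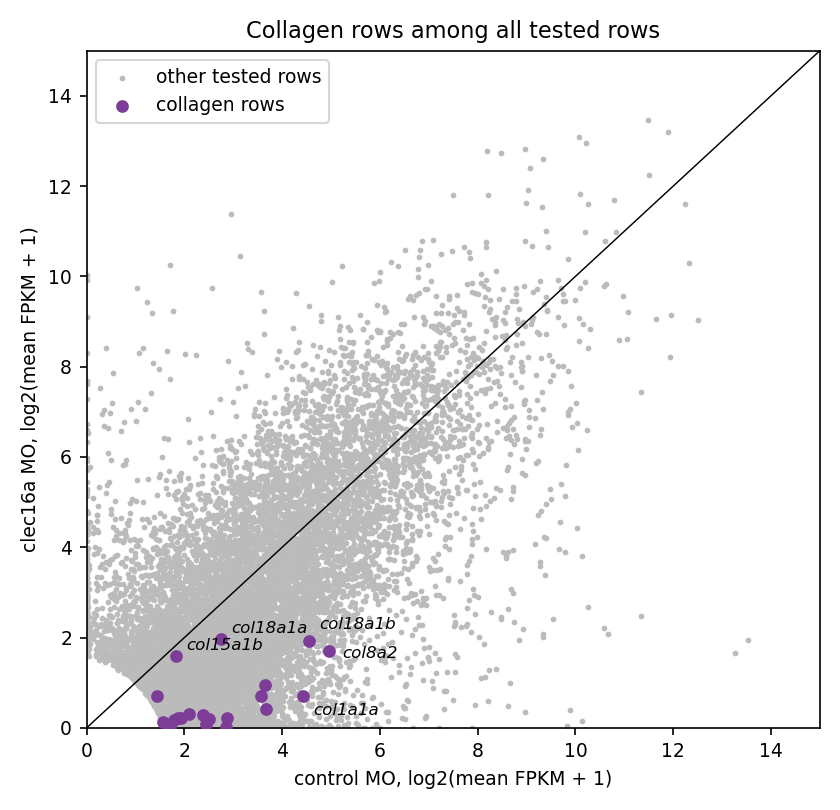
Mean level of every tested row as log2(mean FPKM + 1), clec16a MO on the vertical and control MO on the horizontal axis, with the 20 collagen rows in purple and the line of equal levels drawn. All collagen rows lie below the line, col15a1b (2.002 FPKM in clec16a MO and 2.53 FPKM in control MO libraries) closest to it.

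Genes that make collagen did not all follow the chains. Procollagen is hydroxylated and folded in the endoplasmic reticulum, carried out in large COPII vesicles, trimmed outside the cell and cross-linked by lysyl oxidases. Of 60 tested rows in 5 lists of such genes, of collagen receptors and of matrix partners, 8 were called higher and 43 lower, beside 26.7% and 54.6% of all tested rows. Of these, 1 modification, 3 transport, 4 processing, 3 receptor and 6 matrix rows averaged below 1 FPKM in the clec16a MO libraries. They entered the test through their control MO level. Another 2 receptor rows averaged below 1 FPKM in the control MO libraries, so the pooled counts are a description only. In the modification and folding list 2 of 14 were higher and 10 lower. The 2 higher genes encode subunits of prolyl 4-hydroxylase, which stabilizes the triple helix. p4hb, whose product also acts as a general protein disulfide isomerase, read 247, 408 and 243 FPKM in clec16a MO libraries, against 36.0, 36.8 and 39.1 FPKM in control MO libraries (log2 difference 2.93, SE 0.20; adjusted p = 8.0e-06 by limma). p4ha1b, a catalytic subunit, read 12.3, 12.2 and 14.9 FPKM in clec16a MO libraries and 2.61, 2.36 and 2.63 FPKM in control MO libraries (log2 difference 1.996, SE 0.13). Another subunit gene of this enzyme, p4ha2, was called lower (log2 difference -1.46, limma adjusted p = 2.1e-05). It averaged 10.2 FPKM in clec16a MO libraries and 29.5 FPKM in control MO libraries. Below the filter, p4ha1a averaged 0.0813 FPKM in clec16a MO and 1.38 FPKM in control MO libraries. p4ha3 averaged 0.151 FPKM in clec16a MO and 0 FPKM in control MO libraries. p4ha2, p4ha1a and p4ha3 were named after their values were seen.

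The lysyl hydroxylase genes plod3 and plod1a and the prolyl 3-hydroxylase gene p3h3 were called lower, p3h3 entering the test through its control MO level alone. plod3 read 4.62, 2.97 and 2.89 FPKM in clec16a MO libraries and 48.9, 47.4 and 50.4 FPKM in control MO libraries (log2 difference -3.49). plod1a averaged 10.8 ± 2.33 FPKM in clec16a MO libraries and 46.8 ± 1.38 FPKM in control MO libraries, and p3h3 0.412 ± 0.233 FPKM in clec16a MO libraries and 12.7 ± 0.0740 FPKM in control MO libraries (SD, n = 3 each). The collagen chaperone HSP47 has paralogs in the zebrafish. serpinh1b averaged 36.8 ± 8.62 FPKM in clec16a MO libraries and 85.7 ± 3.15 FPKM in control MO libraries and was called lower. serpinh1a read 16.8, 19.8 and 20.6 FPKM in clec16a MO libraries and 21.6, 21.8 and 22.2 FPKM in control MO libraries. Its difference was not called (log2 difference -0.19, limma adjusted p = 0.13) and turned to 0.50 with median centring (limma adjusted p = 0.0047). The isomerase gene fkbp14 was not called either (0.27, limma adjusted p = 0.22), but with clec16a MO replicate 3 left out it was called higher (0.49, adjusted p = 0.0021), as it was with median centring (0.96, adjusted p = 0.0021). serpinh1a and fkbp14 were named after their values were seen.

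In the transport list 2 of 15 were called higher and 10 lower, beside 26.7% and 54.6% of all tested rows. With median centring 2 were higher and 7 lower, beside 39.7% and 38.1%. Of the 15, 3 averaged below 1 FPKM in the clec16a MO libraries, klhl12 among them, and entered the test through their control MO level alone. The COPII GTPase genes sar1b and sar1ab went in opposite directions. sar1b averaged 7.84 ± 2.42 FPKM in clec16a MO libraries and 53.3 ± 2.41 FPKM in control MO libraries, and sar1ab 12.6 ± 1.92 FPKM in clec16a MO libraries and 5.17 ± 0.442 FPKM in control MO libraries (SD, n = 3 each). The COPII coat gene sec13 averaged 17.4 ± 1.33 FPKM in clec16a MO libraries and 77.0 ± 1.11 FPKM in control MO libraries. klhl12, whose product in mammals enlarges COPII coats for procollagen, averaged 0.378 ± 0.0724 FPKM in clec16a MO libraries and 5.24 ± 0.790 FPKM in control MO libraries; a second row carries the same name in capitals and was kept apart. creb3l2, a transcription factor needed for collagen secretion in zebrafish cartilage, averaged 1.29 ± 0.379 FPKM in clec16a MO libraries and 6.49 ± 0.320 FPKM in control MO libraries. vipas39, named after its values were seen, was the other gene called higher (log2 difference 0.35, limma adjusted p = 0.032). That call ended with array weights, with the replicate block and without control MO replicate 1, 2 or 3. It also ended without clec16a MO replicate 3 (limma adjusted p of these fits from 0.055 to 0.15).

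In the processing and cross-linking list all 4 tested rows were called lower, where 54.6% of all tested rows were. All 4 averaged below 1 FPKM in the clec16a MO libraries and so entered the test through their control MO level, which makes this count a description only. The other 14 measured rows were below the filter. tll1, a procollagen C-proteinase of the tolloid family, read 0.619, 0.0749 and 0.460 FPKM in clec16a MO libraries, against 14.9, 15.5 and 15.3 FPKM in control MO libraries. adamts3, a procollagen N-proteinase, stood at 0 in all 3 clec16a MO libraries and read 3.32, 3.06 and 2.96 FPKM in control MO libraries. The enhancer gene pcolce2b averaged 0.798 ± 0.622 FPKM in clec16a MO libraries and 7.75 ± 0.667 FPKM in control MO libraries (SD, n = 3 each). Of the lysyl oxidase genes, loxl3b was tested and read 0.172, 0.0776 and 1.11 FPKM in clec16a MO libraries, against 3.19, 3.98 and 4.05 FPKM in control MO libraries. Below the filter, loxa read 0.551, 1.36 and 1.62 FPKM in clec16a MO libraries and was listed at 0 in each control MO library. The other lysyl oxidase rows, loxl1, loxl2a, loxl2b, loxl4 and loxl5b, stayed below 1 FPKM in every library.

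Of the receptors and collagenases, 4 of 15 tested rows were called higher and 8 lower, shares close to the 26.7% and 54.6% of all tested rows. Of the 15, 3 averaged below 1 FPKM in the clec16a MO libraries and 2 in the control MO libraries. Those rows entered the test through the level of the other group alone. Beta 1 integrin, the beta subunit of the collagen-binding integrins, has paralogs in the zebrafish. itgb1b read 2.99, 0.552 and 2.18 FPKM in clec16a MO libraries, against 124, 120 and 132 FPKM in control MO libraries (log2 difference -5.55, SE 0.32). itgb1a, named after its values were seen, read 0.632, 0.573 and 2.39 FPKM in clec16a MO libraries and 1.95, 1.996 and 1.94 FPKM in control MO libraries. Its groups overlapped, and its difference was not called (-0.53, SE 0.29, adjusted p = 0.13) and turned to 0.17 with median centring and 0.51 with quantile normalization. With clec16a MO replicate 3, the library at 2.39 FPKM, left out, it was called lower (-0.89, adjusted p = 0.00048). The alpha 1 integrin gene itga1 averaged 3.08 ± 0.593 FPKM in clec16a MO libraries and 26.6 ± 0.854 FPKM in control MO libraries (SD, n = 3 each). Of the discoidin domain collagen receptors, ddr2l read 0, 0.291 and 0 FPKM in clec16a MO libraries and 3.63, 3.92 and 3.53 FPKM in control MO libraries, while ddr1 and ddr2a were below the filter. The collagen-degrading cathepsin gene ctsk averaged 1.75 ± 0.330 FPKM in clec16a MO libraries and 13.9 ± 1.65 FPKM in control MO libraries.

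The rows called higher in that list were itga2.3, mmp9 and both rows of the collagenase gene mmp13a. The mmp13a rows read 10.5, 9.58 and 10.3 FPKM and 8.68, 6.74 and 2.86 FPKM in clec16a MO libraries and were listed at 0 in each control MO library. Both entered the test through their clec16a MO level alone and had to differ, so their calls are a description only. How reads were divided between rows of one name is not given in the sources used here. mmp9, a gelatinase gene named with itga2.3 and the second mmp13a row after their values were seen, averaged 6.26 ± 3.41 FPKM in clec16a MO libraries and 1.82 ± 0.197 FPKM in control MO libraries. As background, zebrafish neutrophils and macrophages express mmp9 and mmp13a, and the myeloid marker list was higher in the same libraries. The part of these cells in the mmp9 and mmp13a differences was not tested. mmp2, a gelatinase gene of mesenchymal cells, read 67.7, 69.8 and 76.9 FPKM in clec16a MO libraries and 63.6, 67.1 and 71.5 FPKM in control MO libraries. The groups overlapped, and the log2 difference was 0.08 (95% interval -0.14 to 0.30, limma adjusted p = 0.43), but with median centring it was 0.77 and called (adjusted p = 0.00017), and with quantile normalization -0.07.

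Among the matrix partners 0 of 12 tested rows were called higher and 11 lower, beside 26.7% and 54.6% of all tested rows. Of the 12, 6 averaged below 1 FPKM in the clec16a MO libraries and entered the test through their control MO level alone. hspg2, which encodes the basement membrane proteoglycan perlecan, read 0.0770, 0.0735 and 0.139 FPKM in clec16a MO libraries, against 14.6, 14.02 and 13.9 FPKM in control MO libraries (log2 difference -3.79, SE 0.11). sparc, which encodes a collagen-binding matrix protein, read 22.4, 23.4 and 24.4 FPKM in clec16a MO libraries, against 140 FPKM in the first control MO library and 142 and 139 FPKM in the others. The cartilage matrix genes matn4 and hapln1a averaged 1.70 ± 0.439 and 0.591 ± 0.0350 FPKM in clec16a MO libraries, against 19.2 ± 0.495 and 9.09 ± 0.160 FPKM in control MO libraries (SD, n = 3 each). fmoda, which encodes the fibril-binding proteoglycan fibromodulin, stood at 0 in all 3 clec16a MO libraries and read 2.09, 2.24 and 2.15 FPKM in control MO libraries. The row without a call was tgfbi, a matrix adhesion gene named after its values were seen. It read 41.1, 54.0 and 59.0 FPKM in clec16a MO libraries and 49.2, 52.7 and 54.7 FPKM in control MO libraries (-0.04 on the log2 scale, adjusted p = 0.82), and was called higher with median centring (0.66, limma adjusted p = 0.0048).

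**Figure D5:**
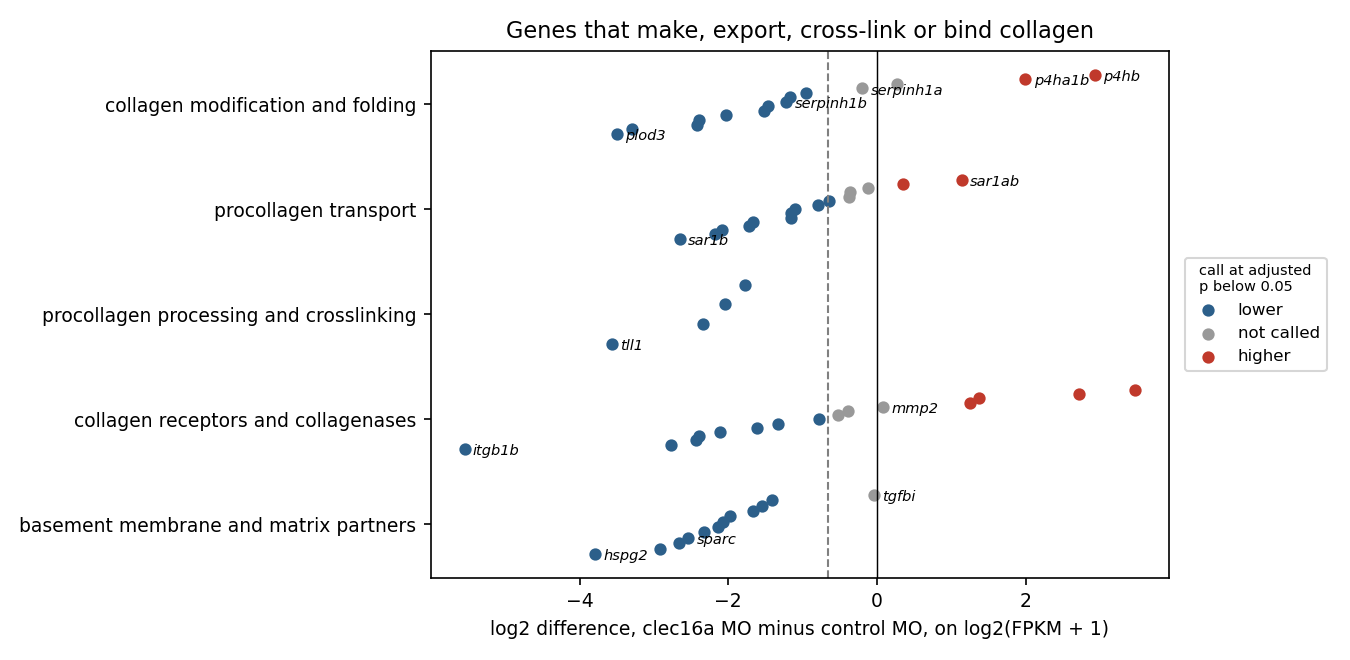
Log2 difference (clec16a MO minus control MO, on the log2(FPKM + 1) scale) of the 60 tested rows in 5 lists of genes that modify, export, process or bind collagen; colours give the limma call, and the dashed line marks the median of all tested rows. Of the prolyl 4-hydroxylase genes, p4hb (2.93) and p4ha1b (1.996) lie on the positive side and p4ha2 (-1.46) on the negative side. itgb1b (-5.55) and hspg2 (-3.79) are the most negative rows of the receptor and matrix lists.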

How the data were processed

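RNA of GFP+ cells was measured in 6 libraries, 3 per morpholino, grouped by the genotype label. Per the labels' protocols, cDNA was primed with oligo(dT), extended by template switching, amplified, fragmented and read from both ends. FPKM values were deposited by the authors in 1 table. The submitters' processing notes name cutadapt 1.9, HISAT2 2.2.1 and StringTie 2.1.6, while the sources used here give neither genome build nor annotation. FPKM carries no totals, and depth is unknown: low values gave no usable steps of whole reads in the clec16a MO libraries (at most 21 genes shared the commonest ratio of 2 libraries, where the median ratio had 8 to 9).

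Of 21853 rows, 16 with a calendar date for a name were left out. Rows with a mean of at least 1 FPKM were tested as log2(FPKM + 1), a scale that understates changes of low genes, with limma 3.58.1 (R 4.3.3; moderated test with mean-variance trend, two-sided, group as the only term, Benjamini-Hochberg over 12153 rows, threshold 0.05), checked on simulated data. Single ratios were taken on FPKM without a pseudocount and compared with SciPy 1.17.1. Alternatives were 2 pseudocounts, 2 filters, 2 scalings, no trend, array weights, summed rows of one name, a replicate block and leaving out each library. Named partner genes were the 5 with the smallest adjusted p per list and 9 fixed genes plus the lox family; exceptions are marked, and erg and the markers listed at 0 were named after their values were seen. The members and lists were chosen with earlier results of these data known. No sequences of the chains were used here. All 46 collagen names match symbols of the RefSeq table of GRCz12tu.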

Additional observations from a re-analysis of the deposited data

How the results depend on the processing

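Over 16 alternative fits, the 19 collagen rows called lower stayed at 19 with either other pseudocount (0.1 or 5), without the trend, with array weights, with rows of one name summed and without any 1 library, and numbered 17 with median centring and 16 with quantile normalization, where 1 row, col15a1b, was called higher (0.46 and 0.70). Fewer or more rows were tested with other filters. With a mean of at least 5 FPKM, 6 collagen rows were called lower, which was every collagen row left to test. Of all genes 6004 were called, 3472 of them lower, and the partner lists gave 4 higher and 25 lower. No share of all rows tested was taken with this filter, so its counts are a description only. With no filter the counts were 41 collagen rows lower of 48, beside 47.8% of all rows (10430). The 5 partner lists, of 19, 18, 18, 22 and 21 rows, then gave 10 rows higher and 65 lower. Of all 21837 rows, 3558 were called higher with no filter. With median centring the partner lists gave 12 rows higher and 38 lower, beside 39.7% and 38.1% of all tested rows. With quantile normalization they gave 9 higher and 36 lower, beside 38% and 39.8%. Leaving out 1 library at a time gave 9132 to 10150 genes called over all genes, 0 collagen rows higher, 7 to 8 partner rows higher and 43 to 45 lower. Reversed differences were those of col15a1b under both scalings, col5a1 with quantile normalization (0.32), serpinh1a (0.50 and 0.029) and itgb1a (0.17 and 0.51) under both, mmp2 with quantile normalization (-0.070), and tgfbi with median centring (0.66), array weights (0.040) and without clec16a MO replicate 1 (0.11, where leaving out 1 library gave -0.14 to 0.11); the cause was not tested. Without globin, mitochondrial genome and ribosomal protein genes in the total, the collagen share was 0.00345% in clec16a MO and 0.0379% in control MO libraries; without muscle, epidermis and erythroid markers, chosen after seeing the data, it was 0.00307% in clec16a MO and 0.0346% in control MO libraries. Leaving out 1 library moved it between 0.00292% and 0.00303% in clec16a MO and between 0.0331% and 0.0346% in control MO libraries.

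The sample titles number the libraries 1 to 3 in both groups. Deviations from the group means correlated at 0.044, -0.018 and 0.0054 between same-numbered libraries, so the numbers were not taken to pair them. With the replicate block the counts were 19 collagen rows lower and 0 higher, 9843 genes called, and 7 partner rows higher and 43 lower; among the named genes vipas39 lost its call there (0.35, limma adjusted p = 0.083). Depth is unknown, so no upper limit can be given for the rows listed at 0, and 16 of the 20 tested collagen rows averaged below 1 FPKM in the clec16a MO libraries.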
